A study of Homo sapiens with 6 samples.

Results

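The genes described are 46 genes of homologous recombination, the Fanconi anaemia pathway and the checkpoint kinases that act with them. They were chosen by name from a list of repair genes, and all 46 were found among the 22481 genes of the deposited count table. These genes and the other gene lists below were chosen with earlier results of these data known. RNA was sequenced from 143B, an established human osteosarcoma line. There were 6 libraries from 6 wells: 3 control wells, and 3 wells in which celastrol, a plant triterpene, was present for the last 24 h of culture. The dose and the vehicle were not given in the sources used here, and no other treatment or genotype separates the groups. Each library is 1 well, so p-values measure only the spread between wells, which may be technical.

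Homologous recombination repairs DNA breaks and stalled replication forks by copying an intact sister chromatid. Nucleases first expose single-stranded DNA, BRCA2 and its partners prepare it for pairing with the sister chromatid, and helicases and nucleases later separate the joined chromatids. The Fanconi pathway removes crosslinks between the DNA strands. Its core complex attaches ubiquitin to FANCD2 and FANCI, which brings in nucleases and the recombination proteins. ATM and ATR are the kinases that signal damage to the checkpoint kinases CHEK1 and CHEK2. Many of these genes are transcribed most in dividing cells as they enter and pass S phase.

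Library totals ran from 38408143 to 39453778 counts, at which 3 counts, the limit that a count of 0 allows, equal 0.076 to 0.0781 CPM, which are counts scaled to a common library total. These limits cover counting error only. On the first principal component (62.6% of the variance) the wells closest to the opposite group were celastrol 2 and control 1. The summed level of 8 mesenchymal or osteoblast markers was 3032 to 3158 CPM with celastrol and 3938 to 4091 CPM in controls. Of the 7 that could be tested, VIM (-0.42), RUNX2 (-0.90) and ALPL (-1.18) were called lower, COL1A1 (0.66) was called higher, and SPARC, FN1 and SPP1 were not called, while COL1A2 had 0 to 2 counts. Endothelial markers summed to 0.406 to 0.759 CPM with celastrol and 1.30 to 1.71 CPM in controls, with KDR at 14 to 54 counts called lower (-1.40, adjusted p = 0.0215), VWF at 1 to 14, PECAM1 at 1 to 11 and CDH5 at 0 to 1 counts. Leukocyte markers summed to 0.355 to 0.633 CPM with celastrol and 0.0519 to 0.290 CPM in controls, with CD14 at 2 to 25 counts (1.73, adjusted p = 0.0723) and PTPRC at 0 to 6. Epithelial markers summed to 6.70 to 7.14 CPM with celastrol and 5.71 to 6.50 CPM in controls, nearly all from EPCAM, and CDH1 and KRT20 had 0 to 1 counts. The part of these markers' changes in the repair genes' levels was not tested. These marker levels do not separate fewer cells of a kind from less RNA per cell, which bulk libraries cannot tell apart.

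Repair genes of this set were more often higher than lower with celastrol. Of the 46 genes, all of which passed the filter on low counts, 24 were higher, 4 were lower and 18 were not called by edgeR's quasi-likelihood test (Benjamini-Hochberg adjusted p under 0.05 over all 15387 genes tested). Over all genes tested, 23.6% were called higher, 24.8% lower and 48.4% in either direction. The median log2 fold change of the 46 genes was 0.30, against -0.00024 for all genes tested. With library size alone as scaling, these medians were 0.34 and 0.041. The middle part of the set, between its quartiles, ran from 0.14 to 0.55, and that of all genes from -0.36 to 0.30. In 27 of the 46 genes every celastrol well lay above every control well, and in 5 every celastrol well lay below. Over all genes tested these shares were 28.4% and 28.6%. Without celastrol replicate 2 and control replicate 1, 27 were called higher and 5 lower.

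**Figure D1:**
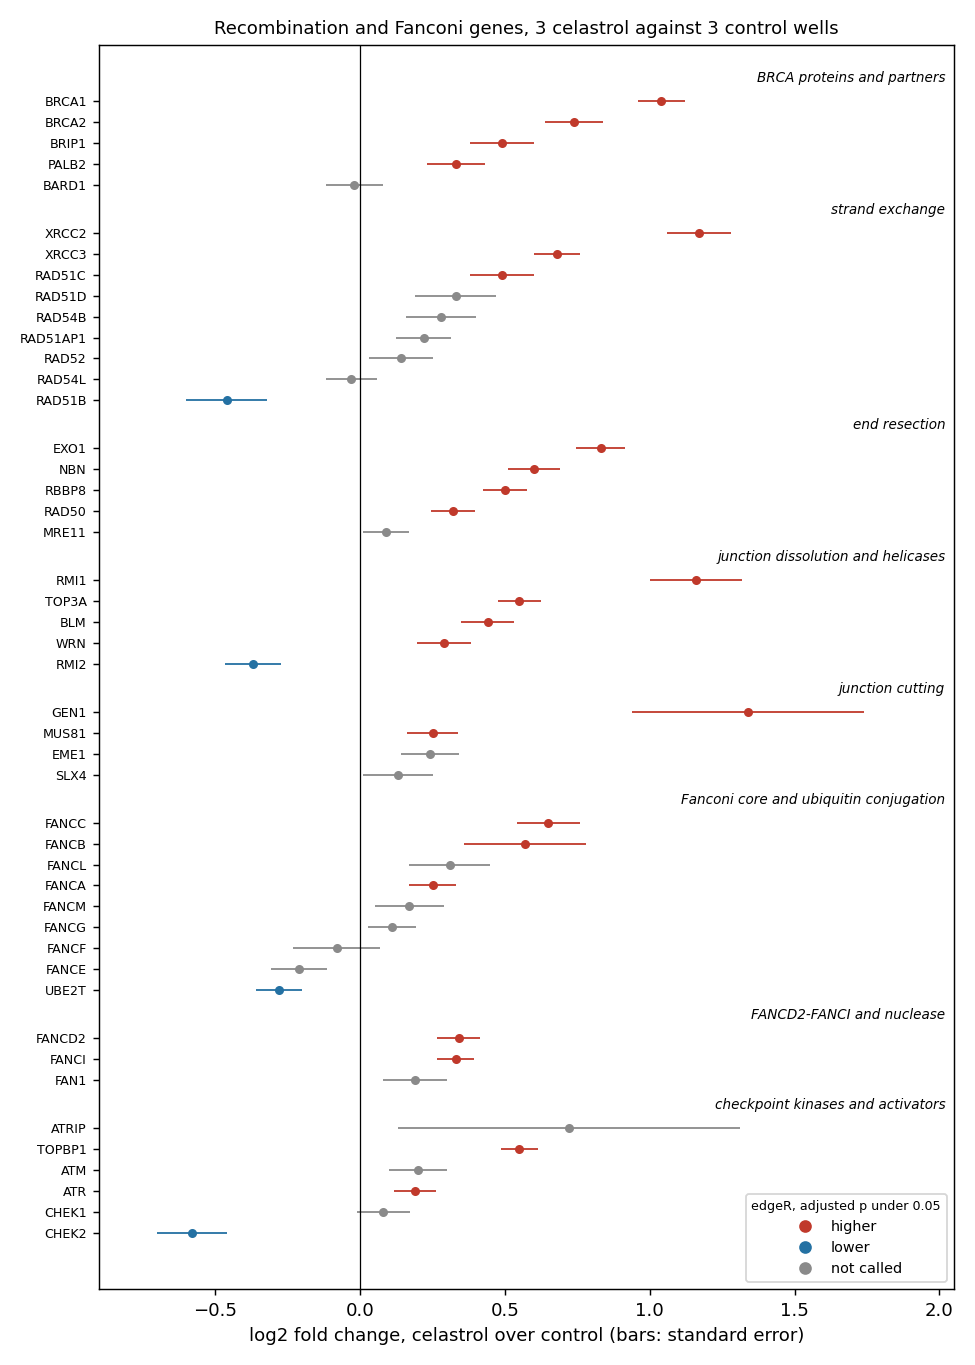
Log2 fold change (celastrol over control, horizontal axis) of the 46 genes, grouped by role, with standard errors as bars and colours for the edgeR call at an adjusted p under 0.05. Most points lie right of 0, from CHEK2 at -0.58 to GEN1 at 1.34, and 24 are called higher and 4 lower.

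Levels per length were compared with the authors' FPKM (fragments scaled by gene length and library total). In control wells UBE2T, the ubiquitin-conjugating enzyme of the Fanconi pathway, had the highest level at 67.6 ± 3.92 FPKM (SD, n = 3). FANCI followed at 26.5 ± 1.74 and FANCG, a core complex subunit, at 24.4 ± 2.82 FPKM, which differ by less than their spread. Only 6 of the 46 genes exceeded 20 FPKM in controls, and 9 were under 2 FPKM. Among the latter were BRCA2 at 1.39 ± 0.103, GEN1 at 0.868 ± 0.506 and FANCB at 0.531 ± 0.114 FPKM. ATRIP, the partner of ATR, was lowest at 0.0524 ± 0.0121 FPKM, from 8 to 23 counts per library. In GENCODE 29 it shares 29.1% of its exon bases with TREX1 on the same strand, and how reads in the shared bases were counted is unknown here. Across the 46 genes, which share all libraries, log2 control FPKM and log2 fold change had a Spearman rho of -0.30 (Pearson -0.35). Without ATRIP these were -0.26 and -0.33. The control level enters both values, so they are not independent. Log2 exon length and log2 fold change had a rho of 0.25 (Pearson 0.32).

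**Figure D2:**
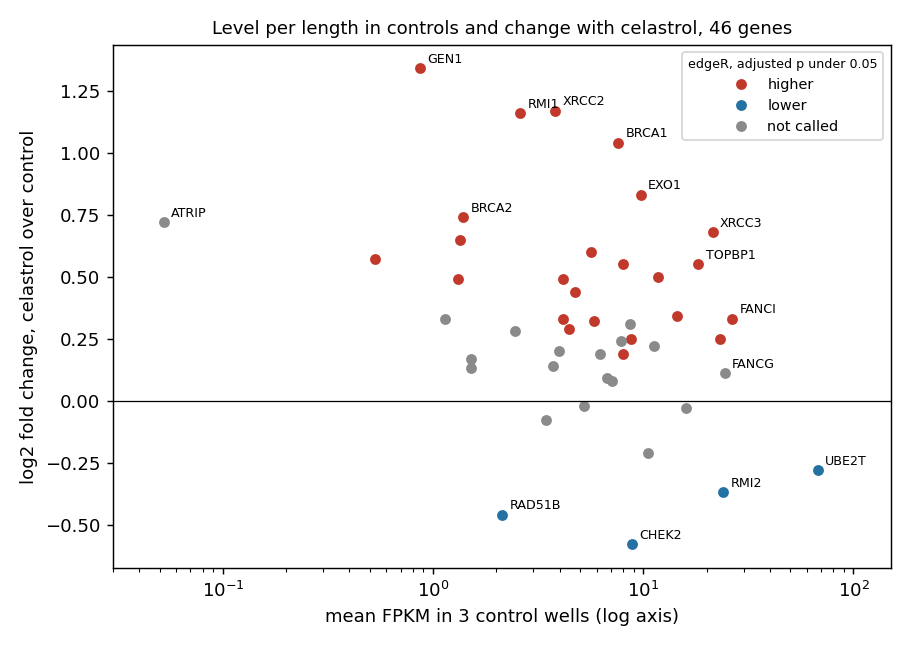
Mean FPKM in 3 control wells (log axis) against log2 fold change with celastrol for the 46 genes, coloured by edgeR call. UBE2T, the most abundant at 67.6 FPKM, lies below 0, and the 4 largest called rises (GEN1, XRCC2, RMI1 and BRCA1) lie at 0.868 to 7.60 FPKM.

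Of the BRCA proteins and their partners, 4 of 5 genes were higher, against 23.6% of all genes tested. BRCA1, a ubiquitin ligase that promotes resection and recruits PALB2 (NCBI gene 672, chromosome 17, 43044295 to 43170327 in RefSeq on GRCh38.p14), had 106.0, 113.6 and 121.8 CPM in celastrol replicates 1, 2 and 3 and 60.7, 54.3 and 50.5 CPM in control replicates 1, 2 and 3. The groups lay far apart, with a log2 fold change of 1.04 ± 0.080 (SE; adjusted p = 1.82e-08). BARD1, the obligate ubiquitin ligase partner of BRCA1, had 28.2, 30.2 and 29.3 CPM with celastrol and 29.3, 33.1 and 26.6 CPM in controls. Its groups overlapped (log2 fold change -0.02, adjusted p = 0.875), and with library size alone the sign turned (0.0193).

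BRCA2, a mediator of strand exchange (gene 675, chromosome 13, 32315077 to 32400268), had 27.3, 29.3 and 27.6 CPM with celastrol and 17.6, 15.4 and 17.6 CPM in controls. Every celastrol well was above every control well (0.74 ± 0.10, adjusted p = 1.37e-05). The helicase gene BRIP1 had 22.9, 24.0 and 20.5 CPM with celastrol and 16.9, 16.0 and 15.0 CPM in controls, again without overlap (0.49 ± 0.11, adjusted p = 0.00129). PALB2, which bridges BRCA1 and BRCA2, was higher by less (0.33 ± 0.10, adjusted p = 0.0125). It missed the threshold when celastrol replicate 2 (adjusted p = 0.0501), celastrol replicate 3 (0.0637) or the pair of celastrol 2 and control 1 (0.0585) was left out. Its adjusted p ran from 0.00573 to 0.0637 over 16 alternatives.

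**Figure D3:**
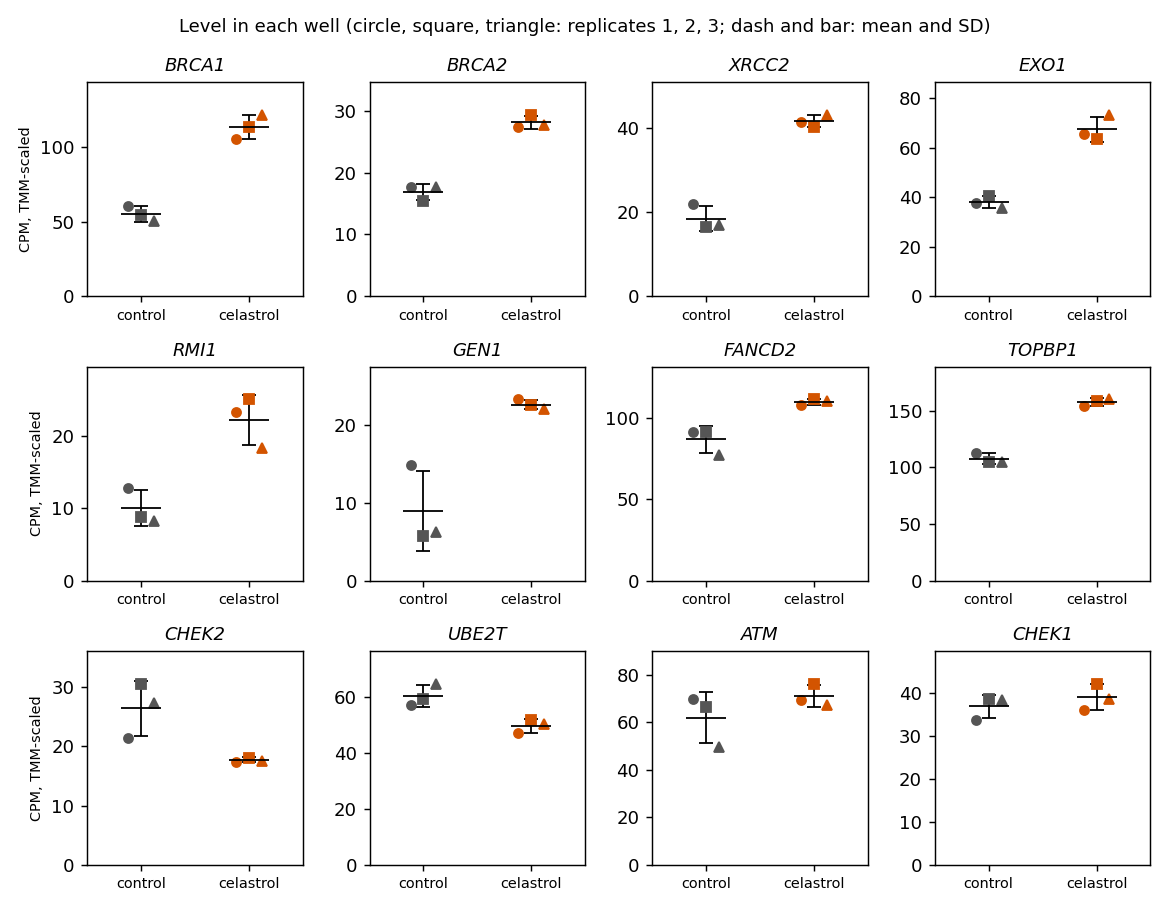
Level in each well (CPM, TMM-scaled, axes from 0) of 12 of the genes in 3 control (grey) and 3 celastrol (orange) wells, with mean and SD. Celastrol wells lie above controls from BRCA1 to TOPBP1 and below them for CHEK2 and UBE2T, and the groups overlap for ATM and CHEK1.

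The strand exchange genes, which include the subunits of the complexes BCDX2 and CX3, did not move as one. Of 9 genes in this role, 3 were higher (33.3%) and 1 was lower (11.1%), against 23.6% and 24.8% of all genes tested. XRCC2, a BCDX2 subunit (gene 7516, chromosome 7, 152644776 to 152676141), had 41.6, 40.3 and 43.2 CPM with celastrol and 21.9, 16.5 and 17.0 CPM in controls. No celastrol well came near a control well (1.17 ± 0.11, adjusted p = 1.37e-07). XRCC3, which pairs with RAD51C in the complex CX3, had 97.0, 87.5 and 100.2 CPM with celastrol and 65.3, 55.4 and 57.5 CPM in controls (0.68 ± 0.079, adjusted p = 2.09e-06). In GENCODE 29, 67.4% of its exon bases (4032 bases) overlap exons of KLC1 on the opposite strand. The authors' counts and FPKM imply only 2739 exon bases for XRCC3, so the share in the counted exons is unknown here. KLC1 had mean levels of 269 CPM in controls and 235 CPM with celastrol (log2 fold change -0.20), and strand use in the counting was not given in the sources used here. RAD51C, which belongs to both complexes, had 21.4, 23.3 and 22.5 CPM with celastrol and 16.0, 14.6 and 17.3 CPM in controls (0.49 ± 0.11, adjusted p = 0.00121).

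RAD51B, another BCDX2 subunit, moved the other way. It spans 863318 bases on chromosome 14 and had 12.3, 16.5 and 16.1 CPM with celastrol and 19.1, 24.2 and 18.3 CPM in controls (-0.46 ± 0.14, adjusted p = 0.0107). The highest celastrol well and the lowest control well were close. RAD51B missed the threshold when celastrol replicate 1 (adjusted p = 0.0733) or control replicate 2 (0.0905) was left out and by limma on log2 FPKM (0.0691 and 0.0703 with pseudocounts of 1 and 0.1). Its adjusted p ran from 0.00123 to 0.0905 over 16 alternatives. Its wells, and those of BARD1, RMI2, MRE11, RAD50 and FANCA, are given by a choice made after their values were seen. The remaining BCDX2 subunit RAD51D (0.33), the motor proteins RAD54B (0.28) and RAD54L (-0.03), the strand pairing factor RAD51AP1 (0.22) and the annealing protein RAD52 (0.14) were not called. RAD54B shares 66.5% of its exon bases with FSBP on the same strand. RAD54L shares 25.1% with LRRC41 on the opposite strand, which had a log2 fold change of -0.65. Higher genes in this role numbered 6 without control replicate 1 and 6 with library size alone.

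The end resection genes, whose products trim broken ends, were higher in 4 of 5 cases, against 23.6% of all genes tested. EXO1, the long-range exonuclease (gene 9156, chromosome 1, 241847986 to 241889939), had 65.4, 63.7 and 73.2 CPM with celastrol and 37.5, 40.6 and 35.7 CPM in controls (0.83 ± 0.083, adjusted p = 3.53e-07). NBN, the regulatory subunit of the MRE11 complex, had 46.6, 47.2 and 43.5 CPM with celastrol and 33.1, 29.6 and 27.7 CPM in controls (0.60 ± 0.090, adjusted p = 2.7e-05). RBBP8, which encodes the nuclease cofactor CtIP, had 67.6, 64.1 and 71.5 CPM with celastrol and 46.5, 50.0 and 47.3 CPM in controls (0.50 ± 0.076, adjusted p = 3.24e-05). In each of these 3 genes the groups were well separated.

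The other subunits of the MRE11 complex changed less or were not called. RAD50, its ATPase, had 61.6, 57.0 and 64.2 CPM with celastrol and 50.5, 49.0 and 47.3 CPM in controls (0.32 ± 0.077, adjusted p = 0.00238). GENCODE 29 lists AC116366.3 over 79.4% of its exon bases on the same strand. MRE11, its nuclease, had 52.5, 55.3 and 57.5 CPM with celastrol and 55.1, 51.9 and 48.3 CPM in controls, with overlapping groups (0.09, adjusted p = 0.371).

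All 5 genes of junction dissolution and its helicases were called, 4 higher and 1 lower, where 48.4% of all genes tested were called. In this step the BLM helicase, the topoisomerase TOP3A and the scaffold proteins RMI1 and RMI2 separate joined chromatids without exchange. RMI1 (gene 80010, chromosome 9, 83980359 to 84004074) had 23.2, 25 and 18.3 CPM with celastrol and 12.8, 8.82 and 8.23 CPM in controls (1.16 ± 0.16, adjusted p = 2.42e-05). TOP3A had 102.7, 88.8 and 100 CPM with celastrol and 68.8, 63.6 and 66.1 CPM in controls (0.55 ± 0.073, adjusted p = 7.65e-06). BLM had 37.9, 39.8 and 35.5 CPM with celastrol and 29.5, 26.7 and 27.2 CPM in controls (0.44 ± 0.090, adjusted p = 0.00056).

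RMI2, the other scaffold protein, fell. It had 28.5, 28.0 and 23.9 CPM with celastrol and 35.9, 32.4 and 35.8 CPM in controls (-0.37 ± 0.097, adjusted p = 0.00378), and every celastrol well was below every control well. WRN, the Werner helicase gene, was higher (0.29 ± 0.093, adjusted p = 0.015). WRN missed the threshold when 1 well was left out, namely celastrol 1 (adjusted p = 0.0777), celastrol 2 (0.0506), control 2 (0.0813) or control 3 (0.0503). Its adjusted p ran from 0.000995 to 0.0813 over 16 alternatives.

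Of the 4 genes for nucleases that cut joined chromatids, GEN1 and MUS81 were called higher (50.0%, against 23.6% of all genes tested). GEN1, a Holliday junction resolvase (gene 348654, chromosome 2), had 23.3, 22.5 and 22.1 CPM with celastrol and 14.9, 5.69 and 6.23 CPM in controls. The celastrol wells were close together, and control replicate 1 stood apart from the other two controls (1.34 ± 0.40, adjusted p = 0.0409). Without control replicate 1 the log2 fold change was 1.92 (adjusted p = 2.8e-11). GEN1 missed the threshold without celastrol 1 (0.104), celastrol 2 (0.0981), celastrol 3 (0.091) or control 3 (0.0826), and with no filter on low counts (0.0953). Its adjusted p ran from 2.8e-11 to 0.104 over 16 alternatives.

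MUS81, the catalytic subunit of a structure-specific nuclease, had 71.8, 65.7 and 69.1 CPM with celastrol and 65.3, 49.9 and 58.3 CPM in controls (0.25 ± 0.089, adjusted p = 0.026). Control replicate 1 lay just under the lowest celastrol well. MUS81 missed the threshold without celastrol 1 (0.111), celastrol 3 (0.0761), control 2 (0.166) or control 3 (0.0538), with adjusted p from 0.000535 to 0.166 over 16 alternatives. EME1, the subunit that pairs with MUS81 (0.24, adjusted p = 0.0616), and the scaffold gene SLX4 (0.13, adjusted p = 0.351) were not called. EME1 shares 22.8% of its exon bases with LRRC59 and MUS81 13.2% with CFL1, both on the opposite strand. LRRC59 had mean levels of 186 CPM in controls and 214 CPM with celastrol (log2 fold change 0.21). CFL1 had 1140 CPM in controls and 1270 CPM with celastrol (0.16). Of this role, 0 genes were called without celastrol 1, without celastrol 3 or without control 3, 1 without celastrol 2, without control 2 or with no filter on low counts, and 3 without control 1.

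In the Fanconi core complex and its ubiquitin-conjugating enzyme, 3 of 9 genes were higher (33.3%) and 1 was lower (11.1%). Of all genes tested, 23.6% were higher and 24.8% lower, and no role was tested against them. FANCC (gene 2176, chromosome 9, 95099054 to 95317709) had 19.2, 19.5 and 21.9 CPM with celastrol and 12.3, 13.1 and 13.2 CPM in controls, with a clear gap between groups (0.65 ± 0.11, adjusted p = 0.000136). FANCB, an X-linked core subunit, had 7.79, 6.05 and 5.10 CPM with celastrol and 5.17, 3.37 and 4.18 CPM in controls, so that the groups overlapped (0.57 ± 0.21, adjusted p = 0.0285). FANCB missed the threshold without celastrol 1 (0.192), control 2 (0.134) or control 3 (0.0708), and by limma on log2 FPKM (0.0603 and 0.0731 with pseudocounts of 1 and 0.1). Its adjusted p ran from 0.00628 to 0.192 over 15 alternatives.

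UBE2T had 47.1, 51.7 and 50.3 CPM with celastrol and 57.2, 59.4 and 64.9 CPM in controls, and it fell (-0.28 ± 0.079, adjusted p = 0.00621). The celastrol wells all lay below the controls, and the call held in all 16 alternatives (adjusted p of 0.000974 to 0.0444). FANCA, another core subunit, had 65.3, 65.1 and 65.4 CPM with celastrol and 61.6, 49.8 and 53.4 CPM in controls, and was called higher (0.25 ± 0.082, adjusted p = 0.018). FANCA missed the threshold without celastrol 1 (0.0588), celastrol 3 (0.0591), control 2 (0.109) or control 3 (0.0582), with adjusted p from 0.00052 to 0.109 over 16 alternatives. ZNF276 covers 22.1% of its exon bases on the opposite strand and itself had a log2 fold change of 0.62. FANCL, the ubiquitin ligase (0.31), FANCM, which anchors the complex (0.17), FANCG (0.11), FANCF (-0.08) and FANCE (-0.21) were not called. FANCL shares 22.9% of its exon bases with VRK2 on the opposite strand, which had a log2 fold change of 0.41. Called higher in this role were 5 genes without control 1, and 1 gene each without control 2 and without control 3. Called lower were 2 without celastrol 2, without control 1 or without both.

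FANCD2 and FANCI, the pair that the core complex marks with ubiquitin, both rose. FANCD2 (gene 2177, chromosome 3) had 107.9, 111.4 and 110.2 CPM with celastrol and 91.4, 91.3 and 77.4 CPM in controls (0.34 ± 0.073, adjusted p = 0.000867). FANCI (gene 55215, chromosome 15) had 162.1, 170.1 and 163.9 CPM with celastrol and 139.9, 131.5 and 124.4 CPM in controls (0.33 ± 0.064, adjusted p = 0.000399). Neither gene's groups overlapped. The nuclease gene FAN1 was not called (0.19, adjusted p = 0.153), and it shares 24.8% of its exon bases with MTMR10 on the opposite strand.

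Promoter sequences were read from RefSeq (GRCh38.p14), whose table held 41 of the 46 genes, to see what the genes share upstream of their starts. The 250 bases before each listed start were searched on both strands for an E2F-type site (TTTCGCGC, TTTGGCGC, TTTCCCGC or TTTGCCGC), for the cell cycle element CHR (TTTGAA) and for the CCAAT box (CCAAT). None of these motifs contains another. An E2F-type site was present in 3 of the 41 genes (7.32%), FANCA, FANCC and RMI1. The share was 5.57% of all tested genes with a listed promoter (12063) and 44.7% of 38 S phase genes. FANCA, FANCC and RMI1 were among the 21 of the 41 genes that were called higher (14.3% of the 21). The RMI1 match lay before a later listed start, inside the gene span given above. CHR was present in 4 of the 41 (9.76%), against 11.9% of all and 57.6% of 33 G2 and mitosis genes. The CCAAT box was present in 19 (46.3%), against 40.6% of all. These are matches of letters, not binding sites. The sequences below are FANCA (E2F-type and CCAAT), FANCC (E2F-type and CHR) and XRCC2 (none of the motifs), which rose, and UBE2T (CHR and CCAAT), which fell. A link between motif and direction was not tested. All are on the minus strand, given 5′ to 3′ towards the start, with the matches in capitals and with bases of the genes' own annotated exons left off. Positions are chr16:89816658-89816897 for FANCA, chr9:95317710-95317959 for FANCC, chr7:152676166-152676391 for XRCC2 and chr1:202341981-202342186 for UBE2T.
FANCA: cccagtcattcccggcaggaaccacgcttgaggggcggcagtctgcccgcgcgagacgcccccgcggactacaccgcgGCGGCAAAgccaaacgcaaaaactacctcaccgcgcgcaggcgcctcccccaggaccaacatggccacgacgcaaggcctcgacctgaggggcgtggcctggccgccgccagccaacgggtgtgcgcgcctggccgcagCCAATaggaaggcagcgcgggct
FANCC: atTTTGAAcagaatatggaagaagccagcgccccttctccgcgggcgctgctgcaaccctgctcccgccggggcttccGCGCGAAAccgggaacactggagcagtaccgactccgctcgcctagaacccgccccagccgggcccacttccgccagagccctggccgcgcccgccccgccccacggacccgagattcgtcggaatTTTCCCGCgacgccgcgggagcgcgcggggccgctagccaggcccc
XRCC2: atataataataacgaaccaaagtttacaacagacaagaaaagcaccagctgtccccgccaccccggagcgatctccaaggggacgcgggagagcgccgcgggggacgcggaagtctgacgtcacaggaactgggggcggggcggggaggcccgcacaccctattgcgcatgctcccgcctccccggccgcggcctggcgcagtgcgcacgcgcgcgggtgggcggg
UBE2T: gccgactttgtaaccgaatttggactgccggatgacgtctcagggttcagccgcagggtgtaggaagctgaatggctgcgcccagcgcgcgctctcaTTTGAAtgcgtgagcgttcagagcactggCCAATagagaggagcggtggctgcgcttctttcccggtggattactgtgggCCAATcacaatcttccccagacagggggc

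Among the checkpoint kinases and their activators, 2 of 6 genes were higher (33.3%) and 1 was lower (16.7%). The shares of all genes tested were 23.6% and 24.8%. TOPBP1, which activates ATR (gene 11073, chromosome 3, 133600238 to 133661941), had 154.0, 158.8 and 160.0 CPM with celastrol and 113.0, 104.4 and 104.7 CPM in controls (0.55 ± 0.063, adjusted p = 1.41e-06). CHEK2, the checkpoint kinase downstream of ATM (gene 11200, chromosome 22, 28687742 to 28741834), had 17.3, 18.1 and 17.5 CPM with celastrol and 21.4, 30.6 and 27.3 CPM in controls. CHEK2 fell (-0.58 ± 0.12, adjusted p = 0.000706), and its celastrol wells were closely grouped below all controls. CHEK1, the kinase downstream of ATR, had 36.2, 42.3 and 38.7 CPM with celastrol and 33.9, 38.7 and 38.4 CPM in controls, with overlapping groups (0.08, adjusted p = 0.495).

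The log2 fold changes of the apical kinases were small. ATR had 74.8, 76.5 and 76.3 CPM with celastrol and 71.2, 66.9 and 61.7 CPM in controls (0.19 ± 0.073, adjusted p = 0.04). ATR missed the threshold without celastrol 1 (0.089), celastrol 2 (0.0913), celastrol 3 (0.112), control 2 (0.083) or control 3 (0.159), and with at least 10 CPM required in 3 libraries (0.0606). Its adjusted p ran from 0.00721 to 0.159 over 16 alternatives. ATR shares 17.3% of its exon bases with the pseudogene AC109992.1 on the opposite strand. ATM had 69.4, 76.4 and 67.4 CPM with celastrol and 69.9, 66.4 and 49.8 CPM in controls, where control replicate 3 was lowest (0.20 ± 0.10, adjusted p = 0.134). ATM passed without control replicate 1 (0.0278), with the replicate number as a block (0.0421) and with no filter on low counts (0.045), and its adjusted p ran from 0.0278 to 0.588 over 16 alternatives. ATRIP, at 8 to 23 counts per library, was not called and its change was poorly determined (0.72 ± 0.59, adjusted p = 0.336). Of this role, TOPBP1 alone was called higher without any 1 well other than control 1, and 3 genes were without control 1.

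Genes whose products bind each other were compared by the ratio of their counts within a well, which does not depend on scaling. The 12 pairs were chosen by complex with the genes' changes already known, so the ratios restate those changes and are given as a description, with no test. RMI1 to RMI2 stood at 0.813, 0.893 and 0.767 with celastrol and 0.356, 0.272 and 0.23 in controls, a difference of 1.55 on the log2 scale. BRCA1 to BARD1 stood at 3.75, 3.76 and 4.16 with celastrol and 2.07, 1.64 and 1.9 in controls, a difference of 1.06. These were the widest shifts among the 12 pairs. RAD51C to RAD51B differed by 0.95, XRCC2 to RAD51D by 0.85, FANCL to UBE2T by 0.58, NBN to MRE11 by 0.52, BRCA2 to PALB2 by 0.41 and RAD50 to MRE11 by 0.23. FANCI to FANCD2 stood at 1.5, 1.53 and 1.49 with celastrol and 1.53, 1.44 and 1.61 in controls, so that the groups overlapped. The ratios of MUS81 to EME1 (0.02), XRCC3 to RAD51C (0.18) and TOP3A to RMI1 (-0.62) also overlapped between groups.

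**Figure D4:**
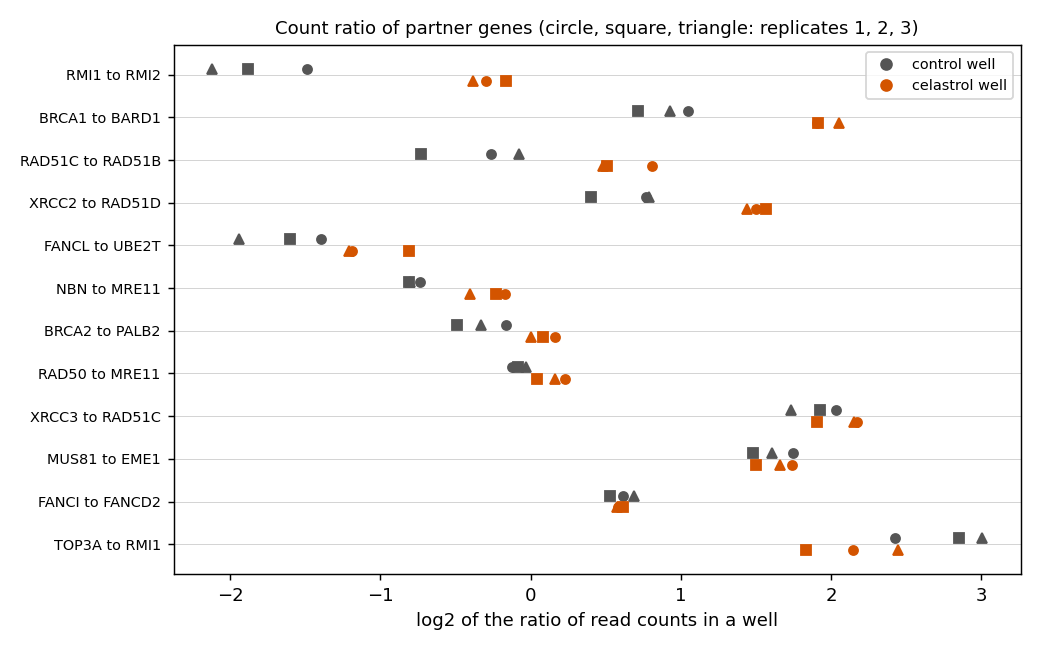
Log2 ratio of read counts of 12 partner gene pairs in each well (horizontal axis), control wells in grey and celastrol wells in orange. The difference between groups is widest for RMI1 to RMI2 (1.55), and the wells overlap for FANCI to FANCD2 and MUS81 to EME1.

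Other genes of the pathway came from a list of 54, of which 51 could be tested. They also leaned higher, with 41.2% called higher (21) and 9.8% lower (5), against 23.6% and 24.8% of all genes tested. Their median log2 fold change was 0.24. The largest changes were in EME2, an alternative partner of MUS81 (1.45 ± 0.16, adjusted p = 7.73e-07), and SWSAP1 (1.29 ± 0.39, adjusted p = 0.0102). The SWSAP1 call rested on levels of 0.493 to 2.25 CPM and missed the threshold without celastrol 2 (0.0565) and without celastrol 2 and control 1 (0.0673), with adjusted p from 0.00355 to 0.0673 over 15 alternatives. ABRAXAS1 (-0.57 ± 0.13, adjusted p = 0.00178) and UIMC1 (-0.33 ± 0.091, adjusted p = 0.00651), subunits of the BRCA1-A complex that restrains resection, fell.

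Of 27 genes of end joining and the choice between routes, 11 were higher (40.7%) and 3 lower (11.1%), with a median of 0.20. Among all genes tested, 23.6% were higher and 24.8% lower. TP53BP1, which shields broken ends from resection, rose (0.76 ± 0.092, adjusted p = 4.93e-06), as did PARP3 (0.70 ± 0.13, adjusted p = 0.000306). The ligase gene LIG3 fell (-0.56 ± 0.12, adjusted p = 0.000825). APLF, a ligation scaffold, was also lower (-0.96 ± 0.33, adjusted p = 0.0224), but not without celastrol 1 (0.0829), celastrol 3 (0.0694) or control 2 (0.0964), in alternatives running from 0.00634 to 0.0964. Lower end joining genes numbered 5 without control 1, alone or with celastrol 2. Of 19 other checkpoint genes, 9 were higher and 1 lower (median 0.18), led by the fork protection partners TIPIN (0.82) and TIMELESS (0.79), and the lower gene was the kinase WEE1 (-0.33). Lower checkpoint genes numbered 2 without control 1, alone or with celastrol 2.

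Mismatch repair had 3 higher of 7 genes and 0 lower by edgeR (median 0.20), with 1 lower at an unadjusted p below 0.05, 0 with DESeq2 and 0 with limma-voom. Without celastrol 3 only 1 mismatch repair gene was higher, and 1 was lower without control 1, without celastrol 2 and control 1, or with at least 10 CPM required in 3 libraries. Nucleotide excision repair had 4 higher and 4 lower of 18 (22.2% each, median 0.02), near the 23.6% and 24.8% of all genes tested. There the repair factor TFIIH subunit gene GTF2H1 rose (0.61) and the damage sensor gene DDB2 fell (-0.49). Base excision repair had 7 higher and 5 lower of 19 (median 0.18), among them the glycosylase genes TDG (0.76) and UNG (0.73) and the lower polymerase gene POLB (-0.69), and 3 were lower without celastrol 2. PMS2, ERCC8 and NEIL1, also called in these lists, each missed the threshold in at least 1 alternative, at up to 0.156, 0.0892 and 0.172. None of these lists was tested against another.

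S phase genes were higher alongside the repair genes. G2 and mitosis genes were higher in 25.6% and lower in 35.9%, where all genes tested had 23.6% and 24.8%. Of 45 S phase genes outside the set, 35 were called higher and 0 lower by edgeR, with a median of 0.42 and the largest rises in the replication helicase genes GINS3 (0.90) and GINS4 (0.81). Their summed level was 5496 to 5685 CPM in the celastrol wells and 4067 to 4474 CPM in the controls. The lower S phase genes were also 0 at an unadjusted p below 0.05, 0 with DESeq2 and 0 with limma-voom, and 1 without control 1, alone or with celastrol 2. Of 39 G2 and mitosis genes, 10 were higher, among them BIRC5 (0.52) and KIF20B (0.45), and 14 lower, among them HJURP (-0.74) and UBE2C (-0.51), with a median of -0.08 and sums of 5429 to 5724 CPM with celastrol and 5582 to 6263 CPM in controls. Higher genes of that list numbered 6 without celastrol 3. Lower genes numbered 6 by limma on log2 FPKM with either pseudocount, 8 when scaled by library size alone, 7 without celastrol 1, 9 without celastrol 2, 6 without control 2 and 7 without control 3. They numbered 18 without control 1 and 16 without celastrol 2 and control 1. The summed level of the 46 repair genes was 2130 to 2165 CPM with celastrol and 1619 to 1795 CPM in controls. The share of cells in S phase was not measured, and its part in the repair genes' levels was not tested.

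**Figure D5:**
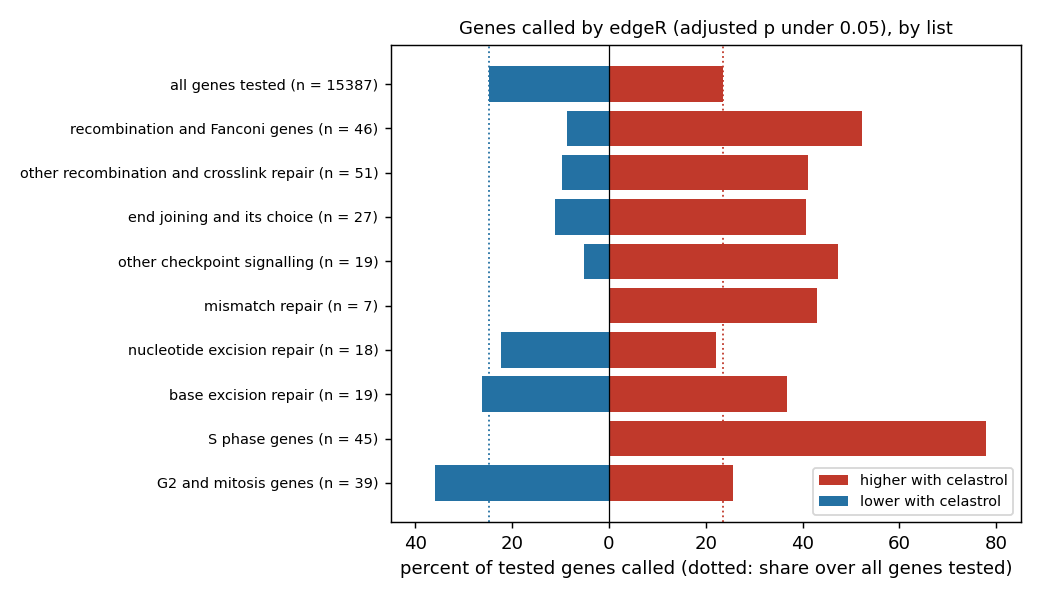
Percent of tested genes called higher (red, right) and lower (blue, left) by edgeR in each list, with the shares over all 15387 genes as dotted lines. The recombination and Fanconi genes have 52.2% higher and 8.70% lower, the S phase genes 77.8% higher and the G2 and mitosis genes 25.6% higher. The other repair and checkpoint lists have 36.8% to 47.4% higher, except nucleotide excision repair (22.2%).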

How the data were processed

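Poly(A) RNA was sequenced from 6 wells with a strand-marking protocol, per the labels' protocols. The submitters' processing notes name build hg38, StringTie 2.1.6, HISAT2 2.2.1, edgeR, DESeq2 and cutadapt 1.9. Tool roles, annotation and counting settings were not given in the sources used here. In unit, the deposited table of counts holds whole-number reads per gene, not normalized. The deposited FPKM table holds values that the authors scaled by gene length and library total.

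After filterByExpr and TMM scaling of the counts, the 3 celastrol and 3 control wells were compared in a robust quasi-likelihood fit (edgeR 4.0.16, limma 3.58.1, DESeq2 1.42.0, R 4.3.3), with Benjamini-Hochberg adjustment over all 15387 genes tested. The edgeR, DESeq2 and limma fits were run on simulated data with fewer changed genes than were called here. Only the main edgeR fit was held to a criterion there, for recovery and false calls. A gene was called at an adjusted p under 0.05. Standard errors (SE) were taken from each log2 fold change and its F statistic. CPM are TMM-scaled. Values per well are given for BRCA1, BRCA2, FANCD2, FANCI, ATM, ATR and CHEK1 and for up to 3 called genes of each role with the largest absolute change. Of each other list, up to 2 called genes in each direction were taken for naming. The genes and lists were chosen with earlier results of these data known. Exon overlaps come from GENCODE 29, without retained-intron transcripts, and the shares may differ in the exons that the authors counted. The replicate numbers were not used as pairs in the main fit. The deviations of same-numbered wells correlated at 0.0341 to 0.0582, and those of differently numbered wells at -0.0625 to 0.00526. A fit with the number as a block is given below. Values of a few listed genes are not reported here.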

Additional observations from a re-analysis of the deposited data

How the results depend on the processing

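Over 16 alternatives in scaling, filter, tool and libraries, 18 to 32 of the 46 genes were called higher (24 with all libraries and the settings used) and 3 to 5 lower (4). Their median log2 fold change was 0.254 to 0.357. Leaving out 1 library at a time gave 18 (without control replicate 3) to 32 (without control replicate 1) higher. Of the 28 called genes, 20 were called in every alternative that tested them, 17 of them higher and 3 lower, and 8 lost the call in at least 1. A further 9 genes were called in at least 1 alternative only. Without control replicate 1, RAD51D (adjusted p = 0.0199), RAD51AP1 (0.0322), RAD54B (0.00226), EME1 (0.0417), FANCL (0.0249), FANCG (0.0433), FAN1 (0.0355), ATM (0.0278) and FANCE (0.0445, lower) passed. The cause was not tested. With the replicate number as a block, 26 were higher and 4 lower. What same-numbered wells share beyond the number was not given in the sources used here. Each of the 6 wells correlated best with the well of its own number.

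Signs turned in values that were not called. BARD1 was at 0.0193 with library size alone and at 0.0202 and 0.0244 by limma on log2 FPKM with pseudocounts of 1 and 0.1, and ranged from -0.0946 to 0.0628 with 1 library left out. RAD54L was at 0.00877, 0.0137 and 0.0148 in these 3 settings, at 0.0387 without celastrol replicate 2 and control replicate 1, and at -0.103 to 0.0603 with 1 library left out. CHEK1 was at -0.042 without celastrol replicate 2 and control replicate 1, and FANCF at -0.187 to 0.0383 with 1 library left out. With 1 library left out, the difference in the log2 ratio of MUS81 to EME1 ran from -0.0466 to 0.0854 and that of FANCI to FANCD2 from -0.0588 to 0.0202.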
